A study of Homo sapiens with 4 samples.

Results

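The comparison described here is miR-100 induction in ALDH-positive SUM159 cells, taken probe set by probe set across the genome. SUM159 is an established human breast cancer cell line without hormone receptors. The cells carried an inducible miR-100 construct in pTRIPZ, a lentiviral vector whose insert is switched on by doxycycline. Flow sorting split them by aldehyde dehydrogenase (ALDH) status, and each sorted population was kept in suspension with DOX or without it. This gave 4 groups of 1 Affymetrix expression array each, a control and a DOX array of ALDH-positive cells and the same of ALDH-negative cells. All 4 groups carried the construct, and doxycycline-treated cells without it were not analysed here. The titles and the treatment protocol name doxycycline for 10 h, whereas the sample descriptions name doxorubicin, a different drug, for 13 h. DOX is therefore used below for the treated arrays. The stated aim was to find the targets of miR-100 in stem-like cells and in the remaining cells.

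Each value is the log2 signal of a probe set, a group of short probes that together measure 1 stretch of a transcript, and is called its level. The measurement followed is the level on the ALDH-positive DOX array minus the level on the ALDH-positive control array. A difference of 1 is 2-fold. A probe set was a member if its level was at least 6 on either of these arrays, which 29790 of all 54675 probe sets were. Of these, 24207 were annotated to 1 gene alone and covered 12166 genes, 5711 through 1 member probe set and 6455 through 2 or more. A gene is called concordant where at least 2 of its member probe sets were past 2-fold and all of them pointed the same way, and its value is the median over its member probe sets. With 1 array a group there was no replicate, so no difference below carries an error or a p-value, and a difference between arrays cannot be told apart from one between conditions. Just inside the level limit 7.37% of 1384 probe sets were past 2-fold, against 5.38% of 1524 just outside it.

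MicroRNAs are short RNAs that, loaded into an Argonaute protein, pair with messenger RNAs mainly through their seed near the 5′ end and lower the amount or translation of the message. miR-100 belongs to the miR-99/100 family, which is known for acting on mTOR pathway genes and on chromatin remodellers of the SWI/SNF and ISWI type. ALDH activity is used to enrich stem-like cells in breast cancer, and breast cancer cells of mesenchymal type are known for matrix genes and mesenchymal cadherins. The mature RNAs of the family are shown because the seed is what a shared target would be matched by; capitals mark the seed, bases 2 to 8, and the sequences are from RefSeq on build GRCh38.p14.
hsa-miR-100-5p: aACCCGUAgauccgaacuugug
hsa-miR-99a-5p: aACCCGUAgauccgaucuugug
hsa-miR-99b-5p: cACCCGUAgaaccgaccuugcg
The seed was the same in all 3, and only these 3 of 2370 mature human miRNAs in the RefSeq table carried it. hsa-miR-99a-5p differed from hsa-miR-100-5p at 1 of 22 bases and hsa-miR-99b-5p at 4. hsa-miR-100-5p lies at chr11:122152275-122152296 on the minus strand, hsa-miR-99a-5p at chr21:16539101-16539122 on the plus strand and hsa-miR-99b-5p at chr19:51692618-51692639 on the plus strand. The arrays do not measure these mature RNAs, so the induction itself was not checked here.

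The arrays had nearly equal medians, 6.18 to 6.22. All 6 genes listed as SUM159 markers, such as VIM and CD44, had a probe set at 6 or more on every array, and none of 5 genes this line should lack, among them ESR1, PGR and EPCAM, reached 6 on any. Of 20 immune markers with a probe set, 4 reached 6 on the ALDH-positive control array and 6 on the DOX array, and the leukocyte gene PTPRC and the T-cell genes CD3D and CD3E stayed below it. All 6 that were measured lay above 0 in the ALDH-positive pair, with a median of 0.69 against -0.08 in the ALDH-negative pair. Of these, the B-cell gene MS4A1 (1.73) and CD74 (1.33), a chaperone of antigen presentation, were 2-fold higher. Markers that reached 6 on the DOX array alone had to lie above 0. Over all 20 markers, by the highest probe set of each, the median level was 5.22 on the ALDH-positive control array and 5.11 on the DOX array. Of 10 endothelial markers, 4 reached 6 on each of these arrays, and of 7 erythroid and platelet markers 2 did. Array control probe sets moved with the ALDH-positive pair. Those for 18S ribosomal RNA were at 12.29 and 10.40 at the 3′ end (difference -1.90) and at 12.36 and 10.42 at the 5′ end (-1.94), against 0.45 and 0.20 in the ALDH-negative pair. For ACTB, which encodes beta-actin, the 3′ probe set differed by -0.07, the middle one by -0.67 and the 5′ one by -0.46. For GAPDH the 3′ value was 0.16, the middle 0.25 and the 5′ 0.39. In the ALDH-negative pair all 6 of these ACTB and GAPDH differences lay between -0.11 and 0.06. The part of these marker and control values in the results below was not tested.

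Across the 29790 members, 1155 probe sets (3.88%) were at least 2-fold higher on the DOX array and 1694 (5.69%) at least 2-fold lower. In RNA pooled from many cells, fewer cells with a transcript and less of it per cell cannot be told apart. The quartiles of the differences were -0.29 and 0.40 and the median was 0.06. In the ALDH-negative pair, which shares no array with this one, 74 of 29053 probe sets (0.255%) were 2-fold higher and 32 (0.11%) 2-fold lower. The spread of the differences was 0.62 (SD over probe sets) in the ALDH-positive pair and 0.23 in the ALDH-negative pair. By gene median, 377 of 12166 genes (3.1%) were 2-fold higher and 314 (2.58%) 2-fold lower. Concordant genes of the ALDH-positive pair were fewer: 72 higher (1.12% of the 6455 genes with 2 or more member probe sets) and 125 lower (1.94%). In the ALDH-negative pair, 33 of 11828 gene medians (0.279%) were 2-fold higher and 6 (0.0507%) 2-fold lower. The concordance rule found 9 genes higher (0.143%) and 1 lower (0.0159%) of 6298 there. Without probe sets whose names end in _x_at or _s_at, which can share sequence with other transcripts, the ALDH-positive counts were 29 higher and 47 lower. Of the genes reported as concordant, 27 higher and 46 lower stayed so without them.

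**Figure D1:**
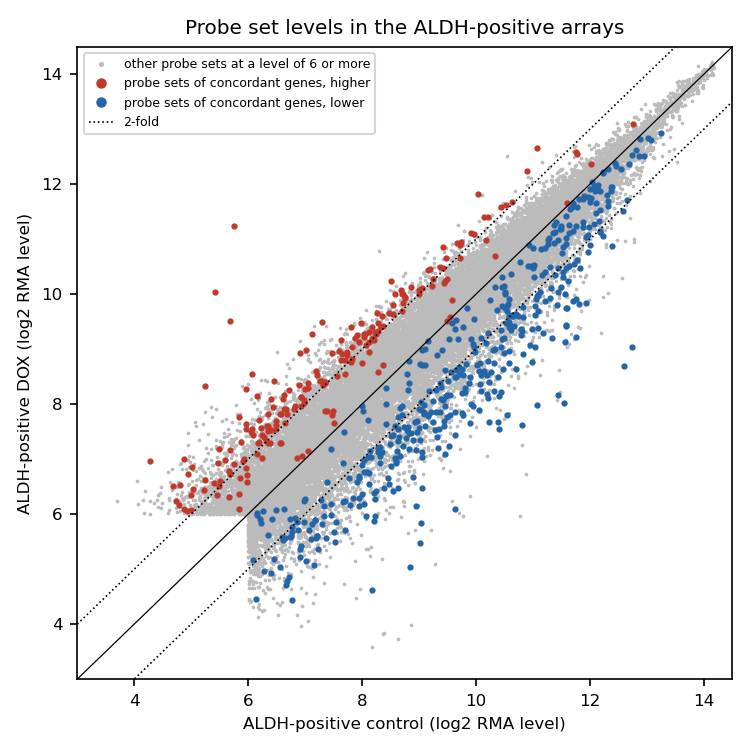
Levels (log2) of the 29790 member probe sets on the ALDH-positive control array (horizontal) and the ALDH-positive DOX array (vertical), with the diagonal and 2-fold lines. Probe sets of the 72 concordant higher genes are red and those of the 125 concordant lower genes blue; the 3 red points of COL3A1 lie far above the diagonal and the 2 blue points of HNRNPL far below it, and some points of both colours lie inside the 2-fold lines because a concordant gene needs only 2 probe sets past them.

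The concordant genes that were higher on the DOX array were led by fibrillar collagens. COL3A1, the chain of type III collagen, had 3 member probe sets. 211161_s_at read 5.76 on the control array and 11.24 on the DOX array, 215076_s_at 5.42 and 10.04, and 201852_x_at 5.69 and 9.51. Its median difference of 4.62 was the largest of any concordant gene. All 3 control values were below 6, so the size is a difference from near background, and with levels under 6 set to 6 it was 4.04. On the ALDH-negative arrays 211161_s_at read 9.62 and 9.50, so that for COL3A1 the ALDH-positive control array stood lowest of the 4 and the DOX array highest. All of its probe sets are of the kind that can share sequence with other transcripts, and with no level filter the median was 3.83 and the gene was no longer concordant. COL5A3, a type V collagen chain, read 4.28 and 6.97 at 218975_at and differed by 2.12 at 52255_s_at. Its difference became 0.98 with levels under 6 set to 6, which ends the call.

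COL5A1, another type V collagen gene, was above 9 on all 4 arrays, and its 3 probe sets read 9.96 and 11.10, 10.05 and 11.83, and 10.21 and 11.42 on the control and DOX arrays. On the ALDH-negative arrays all 3 lay between 9.37 and 10.09. The DOX array was thus the only one of 4 on which any COL5A1 probe set passed 11. DDR2, a receptor tyrosine kinase that binds fibrillar collagen, read 6.45 and 8.43 at 225442_at and 5.69 and 6.73 at 227561_at. The DDR2 call ended at a level limit of 7, with levels under 6 set to 6, and with no level filter, where the median was 0.65.

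CDH6, a classical cadherin, read 7.31 and 9.49 at its brightest probe set 214803_at, and 10.07 and 10.08 on the ALDH-negative arrays, so the DOX array moved towards the ALDH-negative level. TTC39B, a protein linked to cholesterol metabolism, read 5.25 and 8.34 at 232000_at and 7.21 and 8.54 at 242477_at. MUC1, a transmembrane mucin, read 5.96 and 8.28 at 207847_s_at and 7.63 and 8.81 at 213693_s_at. For APOE, the lipid-carrying apolipoprotein, all 3 probe sets were past 2-fold, with the brightest at 7.48 and 8.92. VNN1, a pantetheinase, read 6.44 and 7.95, and 6.62 and 8.09. MUC1 and APOE, like COL3A1, rest on shared-sequence probe sets alone. Without such probe sets 3 of the 12 highest genes stayed concordant, TTC39B, DDR2 and TSPAN18.

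For the rest of the 12 highest concordant genes the control reading was below 6 at 1 or more probe sets. They were TSPAN18, a tetraspanin (median difference 1.82), S100A8, a calcium-binding protein of inflammation (1.58), AP1G2-AS1, an antisense RNA (1.54), and BACH2, a transcriptional repressor of B lymphocytes (1.49). With levels under 6 set to 6 these became 0.80, 0.50, 0.89 and 0.70, so none of these 4 calls held.

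Among concordant lower genes the largest difference belonged to HNRNPL, an RNA-binding regulator of alternative splicing. 202072_at read 12.61 on the control array and 8.70 on the DOX array, and 35201_at read 12.75 and 9.04, for a median difference of -3.81. The ALDH-negative arrays read 12.69 and 12.71, and 12.84 and 12.89. HNRNPL was thus nearly level on 3 arrays at each probe set and stood apart on the ALDH-positive DOX array alone. ALYREF, an mRNA export adaptor, had 226320_at at 10.98 and 8.76 and 226319_s_at at 10.24 and 7.67, against 11.83 and 11.83, and 11.13 and 11.07 on the ALDH-negative arrays. For ALYREF the DOX array was lowest, but the ALDH-positive control also lay below both ALDH-negative arrays. CAPN7, a calpain-family protease, read 11.57 and 9.14 at 203356_at and 9.28 and 7.53 at 203357_s_at.

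CXCL8, the neutrophil-attracting chemokine interleukin 8, followed HNRNPL in size, with a median of -2.81. 202859_x_at read 11.94 and 9.85, and 211506_s_at read 9.64 and 6.10. The ALDH-negative arrays read 11.93 and 11.89, and 9.60 and 9.56, again level with the ALDH-positive control. Both CXCL8 probe sets are of the shared-sequence kind. FUT8, the enzyme of core fucosylation, read 9.90 and 7.66 at 203988_s_at and 7.21 and 5.60 at 1554930_a_at.

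For most of the other leading lower genes, the dimmer probe sets carried the difference and 1 bright probe set hardly moved. LMAN1, a cargo receptor between endoplasmic reticulum and Golgi, read 10.21 and 8.11 at 203293_s_at and 8.94 and 6.15 at 203294_s_at, but 12.75 and 12.53 at 224629_at. PTPN11, which encodes the phosphatase SHP2, had 4 probe sets with differences of -1.83 to -2.25 and another, 212610_at, at 12.08 and 11.95. TEAD1, a DNA-binding partner of YAP, read 11.59 and 9.45 at 214600_at and 11.63 and 11.27 at 224955_at. Probe sets of the same gene and of similar brightness thus gave differences of -2.14 and -0.37. RDX, the membrane-cytoskeleton linker radixin, did the same, with 11.45 and 8.16 at 212398_at and 11.88 and 11.32 at 212397_at. TMED2, a cargo receptor of the p24 family, CPEB4, a regulator of translation, and MIER3 completed the 12, with medians of -2.01, -1.94 and -1.77. Their probe set of highest mean level on the ALDH-positive arrays differed by -0.44, -0.42 and -1.39. For CPEB4 this was not the brightest on the control array. There 224828_at was, with 10.71 and 8.65 on the control and DOX arrays and a difference of -2.07. Without shared-sequence probe sets 3 of the 12 lowest genes stayed concordant, HNRNPL, CPEB4 and PTPN11, and with no level filter PTPN11 and RDX did not.

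**Figure D2:**
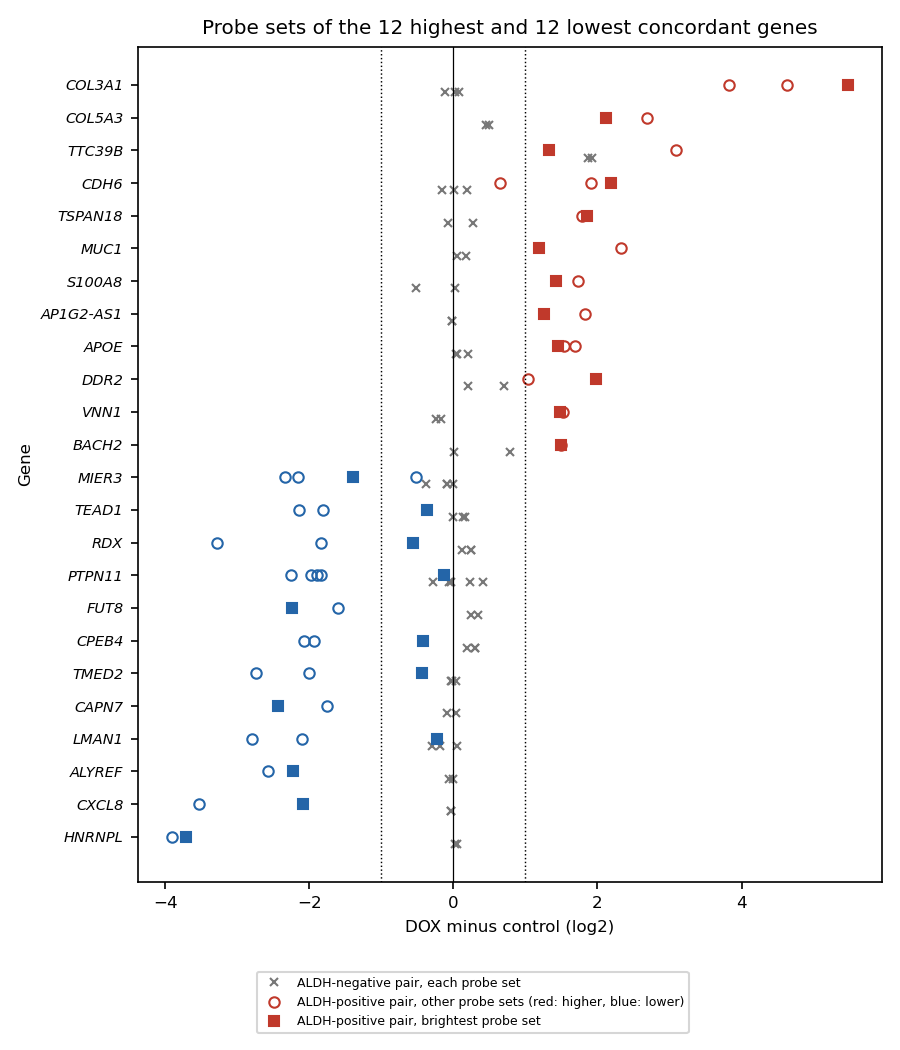
Difference of every member probe set (log2, DOX minus control) for the 12 highest and 12 lowest concordant genes. Filled squares mark the probe set with the highest mean level on the ALDH-positive arrays and open circles the others. Grey crosses are the same probe sets in the ALDH-negative pair. For LMAN1, TMED2, CPEB4, PTPN11, RDX and TEAD1 the square lies between -0.56 and -0.12, whereas every red square lies above 1. This contrast is partly set in advance. Most red genes have only as many member probe sets as the concordance rule needs, which puts their squares above 1. The mean level also includes the DOX array, which favours raised probe sets in higher genes and less lowered ones in lower genes.

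This asymmetry held across the concordant genes. A gene's brightest probe set was here chosen on the ALDH-negative control array, which enters neither side of the difference. It was past 2-fold for 54 of the 72 higher genes and for 51 of the 125 lower ones. Concordant genes with exactly 2 member probe sets pass by the rule, and these were 35 of the higher but 29 of the lower genes. The contrast between the counts is thus partly set by the number of probe sets. For higher genes the median difference was 1.19 at the brightest and 1.20 at the dimmest probe set. For lower genes it was -0.66 and -1.42. Of all 6455 genes with 2 or more member probe sets, the brightest probe set was 2-fold higher in 2.18% and 2-fold lower in 2.48%. The dimmest was 2-fold higher in 3.81% and 2-fold lower in 9.16%. Within genes of several member probe sets, the excess of lower over higher calls was thus larger at the dimmest probe set than at the brightest. Genes with a single member probe set showed the opposite balance, 4.92% higher and 2.50% lower. By absolute level over all members the order differed: at a mean level under 6, 14.6% were higher and 12.4% lower. A member with such a mean has 1 array at 6 or more and the other below it, so the level filter itself favours large differences there. The same probe sets gave 0.593% and 0.424% in the ALDH-negative pair. At higher mean levels the ALDH-positive shares were 5.75% and 6.63% from 6 to 8, 3.65% and 6.80% from 8 to 10, and 0.904% and 3.31% from 10 to 12. Where along the transcript each probe set lies was not analysed here.

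A lone probe set past 2-fold was usually not backed by the gene's others. Of the 1406 genes with 2 or more member probe sets and at least 1 past 2-fold, 14.0% were concordant, against 34.5% of 29 genes in the ALDH-negative pair. In 729 of the 1406 all probe sets pointed one way and in 677 they did not. In 13 a probe set was past 2-fold in each direction. Backing grew with size: of genes whose largest difference was higher, 13.8% were concordant at 1 to 1.5, 32.7% at 1.5 to 2 and 40% above that, and of those whose largest was lower, 5.81%, 20.9% and 28.8%. Across the 6455 genes the differences of the brightest and second brightest probe sets had a Pearson r of 0.45, against 0.50 over 6298 genes in the ALDH-negative pair. These correlations run across genes measured on the same arrays and carry no test.

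**Figure D3:**
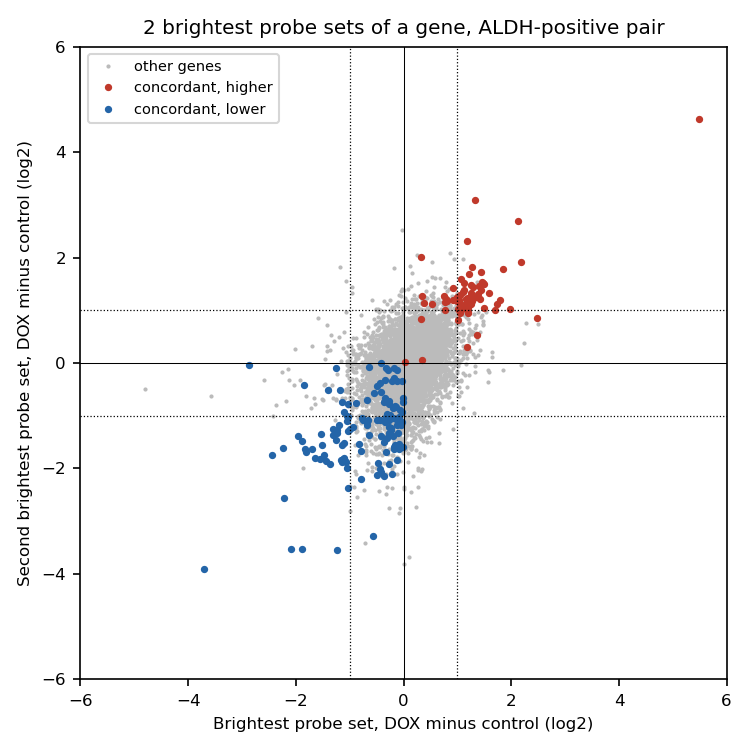
Difference (log2, DOX minus control) of the brightest (horizontal) and the second brightest (vertical) member probe set of each of the 6455 genes with 2 or more, with 2-fold dotted lines. Concordant higher genes are red and lower ones blue; the Pearson r over all points is 0.45, and a group of blue points lies below -1 on the vertical axis and near 0 on the horizontal one.

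A stricter reading kept 15 higher and 16 lower genes. It asked that a gene stay concordant with levels under 6 set to 6 and without the shared-sequence probe sets, and that its brightest probe set, by mean level on the ALDH-positive arrays, pass 2-fold. With no level filter, SCARB1, IL27RA, PECAM1, SYNE2 and GPR180 of this set were no longer concordant. The genes from it described next were chosen after their values were seen. Among the higher ones, TLE2, a transcriptional corepressor, read 8.86 and 10.13 at 40837_at and 8.13 and 9.32 at 204431_at, against 7.83 and 7.98, and 7.07 and 7.24, in the ALDH-negative pair. RHOC, a small GTPase of the cytoskeleton, read 9.42 and 10.48 at 200885_at and 6.32 and 7.61 at 235742_at. SCARB1, the receptor for high-density lipoprotein, read 8.05 and 9.28 at 201819_at and 8.48 and 9.67 at 1552256_a_at. Over its 4 member probe sets the median was 0.77, under 2-fold, and the smallest difference 0.11. STING1, an adaptor of cytosolic DNA sensing, read 7.04 and 8.30 at 224929_at and 6.19 and 7.31 at 224916_at. For TLE2 and STING1 the DOX array was the highest of the 4 at both probe sets.

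Other genes of the strict set were higher on the DOX array yet still at or below the ALDH-negative levels at 1 or more probe sets. DNM3OS, the noncoding host of the miR-199a and miR-214 hairpins, read 6.05 and 7.49 at 235891_at, against 7.88 and 7.58. PECAM1, an adhesion molecule best known as an endothelial marker, read 5.96 and 7.56 at 208982_at, against 9.77 and 9.62. Of 10 endothelial markers 4 were measured, with a median of -0.22, and PECAM1 was the only 1 of them above 0. CDH5 and VWF, among those not measured, were below 6 on all 4 arrays at every probe set. IL27RA, a cytokine receptor chain, read 7.30 and 8.43 at 205926_at, against 8.58 and 8.45. EBF1, a transcription factor, differed from these in being highest on the DOX array, with 227646_at at 9.48 and 10.66 against 9.39 and 9.04. The other higher members were SCARA5, ANTXR2, PLA2R1, SAMD9L, COL5A1, TRHDE-AS1 and TTC39B.

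The lower genes of the strict set were HNRNPL, the cytokine gene IL1B and, among others, enzymes and cytoskeletal genes. IL1B read 8.89 and 7.35 at 39402_at and 8.24 and 6.42 at 205067_at, whereas in the ALDH-negative pair it read 8.46 and 9.38, and 7.87 and 8.79. TET3, which oxidises 5-methylcytosine, read 11.50 and 10.14 at 235542_at and 8.47 and 6.55 at 214754_at. SYNE2, the nuclear envelope protein nesprin-2, was lower at all 4 member probe sets, by -1.07 to -1.88, with the brightest at 12.58 and 11.51. Its call ended with no level filter. NPR3, the natriuretic peptide clearance receptor, read 9.40 and 8.09 at 219054_at. SSH1, a phosphatase that activates cofilin, read 10.63 and 9.61 at 221752_at and 9.98 and 8.95 at 221753_at. The smallest difference of its 4 member probe sets was -0.14. PREP, a prolyl endopeptidase, read 10.84 and 9.59 at 204117_at and 10.46 and 9.19 at 37950_at, and the smallest difference of its 3 was -0.27. The remaining lower members were FAM111B, LRP12, GPR180, RNF19B, FAM76A, FGD6, FBXO45, CEPT1 and PYGO1.

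The reported targets of the miR-99/100 family were on the whole slightly lower, but seldom by much. Of 24 listed genes, 17 were measured, with a median difference of -0.47 beside 0.08 over all 12166 genes. Among the 17, 11 were below 0, 1 was 2-fold lower and none was 2-fold higher. With the brightest probe set of each gene the median was -0.16, and without shared-sequence probe sets -0.20. In the ALDH-negative pair it was -0.08. The list median therefore depended on which probe sets stood for a gene.

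FKBP5, an immunophilin that regulates steroid receptors and AKT signalling, was the only target called concordant. It read 11.53 and 10.32 at 204560_at, 12.18 and 11.15 at 224856_at, and 13.26 and 12.94 at its brightest probe set 224840_at. The ALDH-negative differences at these probe sets were -0.49, -0.33 and -0.18, in the same order of size. SMARCA5, the ISWI ATPase, was lower at all 3 probe sets (-0.82, -0.48 and -0.23) and in the ALDH-negative pair too (-0.26, -0.33 and -0.09). SMARCD1, a SWI/SNF subunit, read 9.23 and 8.61, and 7.57 and 7.12, and its ALDH-negative differences were -0.26 and -0.60. TRIB2, a pseudokinase, had differences of -0.18 and -0.86, and of -0.39 and -0.52 in the ALDH-negative pair. FKBP5, SMARCA5, SMARCD1 and TRIB2 were thus lower at every probe set in both pairs, by less than 2-fold everywhere except at 2 FKBP5 probe sets of the ALDH-positive pair. The others of the 10 targets with 2 or more member probe sets were not. The share of all genes lower at every probe set in both pairs was not counted.

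The kinase targets went both ways. MTOR, the catalytic kinase of the pathway, read 7.67 and 8.04, RPTOR, its partner in complex 1, read 6.88 and 7.57, and AKT1 read 9.96 and 10.66, each by 1 probe set and each higher. IGF1R, the receptor of insulin-like growth factors, was lower at all 3 probe sets, by -0.41 to -0.70, and FGFR3 was lower at its only probe set by -0.66. BMPR2, a receptor of bone morphogenetic proteins, had 5 probe sets from -1.77 to 0.12. ATM, the DNA damage kinase, had 4 from -0.95 to 0.55. PLK1, a mitotic kinase, differed by -0.10. For BMPR2 and ATM the brightest probe set was the one above 0.

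The remaining measured targets also lay inside 2-fold by gene median. AGO2, the slicing Argonaute, read 10.02 and 9.24, and RAP1B, a small GTPase, 12.70 and 12.34. CTDSPL, a phosphatase, had a median of 0.16, ZBTB7A, a transcriptional repressor, 0.05, and ICMT, a methyltransferase of prenylated proteins, 0.45. HS3ST2, NOX4, INSM1 and CLDN11 were below 6 on both arrays, and IGF2 and FZD8, among others, had no probe set annotated to them alone. MIR100HG, the host transcript of the miR-100 hairpin, read 11.17 and 12.02 at 225381_at and 7.58 and 8.04 at 241975_at. In the ALDH-negative pair it read 11.70 and 11.92, and 7.15 and 6.99. MIR99AHG, the host transcript of miR-99a, was not on a list. It was concordant and higher, at 7.24 and 8.54 by median (difference 1.30, and 0.23 in the ALDH-negative pair). That call ended without shared-sequence probe sets and with no level filter. The other 12 genes of the microRNA host and processing list, none of them a host, gave 11 measured members without a 2-fold difference by gene median. With MIR100HG the list median was -0.13. At single probe sets AGO4, an Argonaute, reached -1.22, and of the TNRC6 silencing factors TNRC6A reached 1.23 and TNRC6C -1.05; TNRC6B also had 1 past 2-fold lower.

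The matrix and mesenchymal list was the one with most members 2-fold higher. Of 30 measured genes 22 were above 0, 9 were 2-fold higher and 1 was 2-fold lower, with a median of 0.48. Of all 12166 genes 3.1% were 2-fold higher and 2.58% 2-fold lower, with a median of 0.08. The share of all genes above 0 in the ALDH-positive pair was not counted, here or for the lists below. In the ALDH-negative pair 21 of the 30 were above 0. Concordant members were COL3A1, COL5A1 and SNED1, a matrix protein whose call ended with levels under 6 set to 6 (0.72), all higher, and THBS1, lower. LOXL1, a crosslinking oxidase of elastic fibres, read 7.23 and 8.99, and NID2, a basement membrane linker, differed by 2.43. S100A4, a calcium-binding protein of motile cells, read 10.47 and 11.65. THBS1, the matricellular protein thrombospondin 1, was lower at all 7 probe sets, from 11.56 and 8.02 at 201110_s_at to 6.20 and 5.92 at 215775_at. Without shared-sequence probe sets the THBS1 median was -0.80 and the gene was no longer concordant. The transcription factors of the mesenchymal state did not share one direction: TWIST1 differed by 0.41, SNAI2 by -0.59 and ZEB1 by -0.53. VIM, the intermediate filament gene vimentin, differed by 0.26.

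Cadherins and protocadherins had 9 measured members, 4 of them 2-fold higher and none 2-fold lower, beside 3.1% and 2.58% of all genes. Concordant were CDH6 and PCDH9, a protocadherin whose 4 probe sets differed by 0.31 to 2.02; neither stayed so without shared-sequence probe sets. PCDH18 read 6.91 and 9.14 at 225975_at but 6.09 and 6.47 at 225977_at, and PCDHB14 read 6.86 and 8.09. The ALDH-negative arrays read 9.13 and 9.16 at 225975_at and 6.34 and 6.36 at 225977_at, so PCDH18 reached the ALDH-negative level on the DOX array. CDH6 moved towards that level but stayed below it at its brightest probe set. The list median was 0.74, but 0.31 with the brightest probe set of each gene.

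Inflammatory genes under the transcription factor NF-kB were the list with the lowest median, -0.66 over 21 measured members. Of these, 4 were above 0 and 6 were 2-fold lower, where 2.58% of all genes were 2-fold lower. Of 8 members with 2 or more probe sets, CXCL8 and IL1B were concordant. The other 4 rested on 1 probe set each. CCL20, a chemokine for dendritic cells and lymphocytes, read 9.72 and 7.18, and IL1A, an interleukin released by damaged cells, 10.86 and 8.56. IL6, the acute-phase cytokine, read 8.99 and 7.01, and PTGS2, which encodes cyclooxygenase 2, 6.99 and 5.68. PTGS2 missed 2-fold with levels under 6 set to 6 (-0.99) and with no level filter (-0.75). The ALDH-negative pair gave 9.79 and 9.78 for CCL20, 8.16 and 8.90 for IL1A, 7.46 and 7.13 for IL6 and 8.30 and 7.66 for PTGS2. For IL6 and IL1A the ALDH-positive control was the highest of the 4 arrays, and for CCL20 the DOX array alone was low. NFKBIZ, a nuclear inhibitor of the IkB family, missed the size at both probe sets by little (-0.98 each), whereas RELB, an NF-kB subunit, and SOD2, the mitochondrial superoxide dismutase, differed by 0.03 and 0.01.

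Promoters of 3 of these genes are shown as examples that hold an NF-kB or AP-1 motif in the window searched, 300 bases that end shortly after the RefSeq start on GRCh38.p14; capitals mark the motif on the strand shown.
CXCL8: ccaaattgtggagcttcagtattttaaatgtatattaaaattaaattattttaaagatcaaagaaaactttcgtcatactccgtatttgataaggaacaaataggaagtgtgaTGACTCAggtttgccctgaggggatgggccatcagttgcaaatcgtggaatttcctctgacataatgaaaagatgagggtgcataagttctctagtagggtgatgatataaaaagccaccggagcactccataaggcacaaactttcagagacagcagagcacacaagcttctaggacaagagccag
CCL20: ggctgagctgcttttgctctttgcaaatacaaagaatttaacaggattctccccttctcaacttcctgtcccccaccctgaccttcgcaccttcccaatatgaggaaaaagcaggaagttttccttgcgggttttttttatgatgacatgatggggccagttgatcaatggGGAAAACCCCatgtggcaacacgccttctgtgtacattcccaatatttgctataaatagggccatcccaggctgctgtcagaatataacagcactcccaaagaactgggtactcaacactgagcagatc
IL6: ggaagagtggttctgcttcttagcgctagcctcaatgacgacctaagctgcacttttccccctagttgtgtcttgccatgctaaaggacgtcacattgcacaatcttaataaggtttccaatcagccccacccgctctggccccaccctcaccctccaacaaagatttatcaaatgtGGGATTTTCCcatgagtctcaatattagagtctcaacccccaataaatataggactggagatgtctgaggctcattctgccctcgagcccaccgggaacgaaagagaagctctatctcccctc
The capitals are an AP-1 motif (TGANTCA) for CXCL8 and an NF-kB motif, searched by its standard consensus (GGGRNNYYCC), for CCL20 and IL6. Sites that depart from the patterns searched are left unmarked, so a window without capitals for a factor may still hold a site. Coordinates are chr4:73740319-73740618 on the plus strand for CXCL8, chr2:227813592-227813891 on the plus strand for CCL20 and chr7:22726950-22727249 on the plus strand for IL6. IL1A, not shown, held 2 AP-1 motifs in each of its listed promoters, and none of the motifs searched was in the windows of IL1B and PTGS2. On either strand, the NF-kB motif was found for 11 of 18 measured genes of the list with a promoter in the table (61.1%), against 13.3% of all 27305 genes with one. It was found for 12 of 55 concordant higher genes (21.8%) and 14 of 99 concordant lower genes (14.1%). The list was drawn up from genes known to answer to NF-kB, so its share describes the list, and a match is no evidence of binding. The AP-1 motif was in 9.09% of concordant higher, 11.1% of concordant lower and 9.37% of all genes.

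Immediate early genes and feedback inhibitors of ERK signalling were mostly lower by less than 2-fold. Of 28 measured genes 2 were above 0 and 5 were 2-fold lower, beside 2.58% of all genes, with a list median of -0.44. ATF3, a stress-induced transcription factor, was the only concordant member and read 10.07 and 8.36 at 202672_s_at and differed by -1.63 at 1554980_a_at. Its ALDH-negative readings were 7.93 and 7.69, and 6.53 and 6.50, so for ATF3 the control array was the high one. ATF3 was not concordant without shared-sequence probe sets. MYC, the growth-promoting transcription factor, read 13.54 and 12.41, SPRY2, an ERK inhibitor, 11.34 and 10.18, and EGR3 6.89 and 5.17. EGR3 differed by -0.89 with levels under 6 set to 6. SIK1, a salt-inducible kinase, read 11.13 and 8.54 at 208078_s_at but 6.66 and 6.33 at 232470_at. The CArG box, the motif of serum response factor, and the NF-kB motif were in 1 and 0 of the promoters of 21 genes of this list.

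Genes activated through YAP and TAZ, the transcriptional effectors of the Hippo pathway, had a median of -0.62 over 15 measured members. Of these, 4 were 2-fold lower, beside 2.58% of all genes. TEAD1 and THBS1 were concordant, though not without shared-sequence probe sets. CCN2, a matricellular growth factor, read 8.95 and 7.33, and F3, the tissue factor of coagulation, 11.08 and 9.73, each at 1 probe set. AXL, a receptor tyrosine kinase, differed by 0.63 in the other direction. With the brightest probe set of each gene the list median was -0.25.

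**Figure D4:**
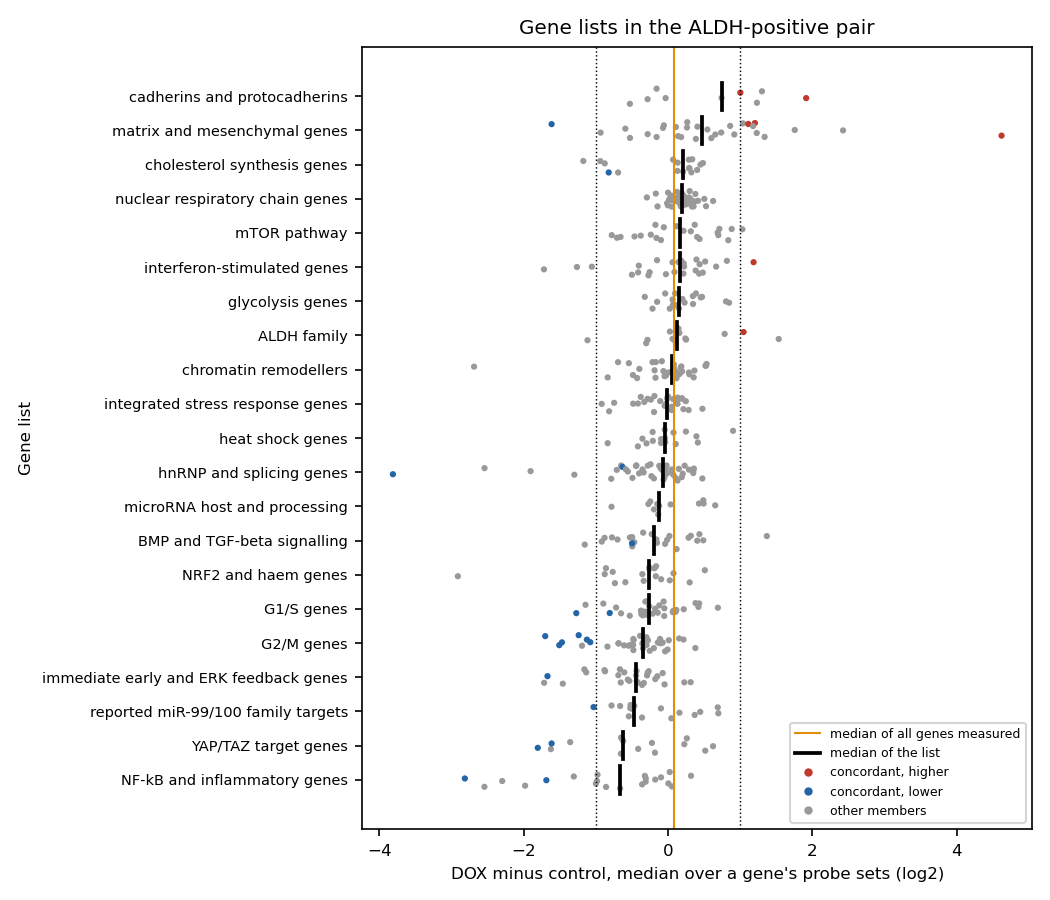
Gene medians (log2, DOX minus control) of the measured members of the 21 gene lists, 1 point a gene, with the list median as a black bar and the median of all genes, 0.08, as an orange line. Concordant members are red (higher) or blue (lower); list medians run from -0.66 for NF-kB and inflammatory genes to 0.74 for cadherins and protocadherins, and most points of every list lie inside the 2-fold dotted lines.

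Most genes of the G2 and M phases were lower by less than 2-fold. Of 39 measured G2/M genes 4 were above 0 and 7 were 2-fold lower, beside 2.58% of all genes, with a list median of -0.35. Of 24 with 2 or more member probe sets, 6 were concordant and lower, beside 1.94% of all such genes. ANLN, a scaffold of the cytokinetic ring, read 11.39 and 10.35, and 9.47 and 7.10. CDK1, the mitotic kinase, differed by -1.17 to -1.57 at 3 probe sets and by -0.11 at the brightest, 203213_at, which read 11.38 and 11.26. ECT2, an activator of RhoA in cytokinesis, and CDC25C, a phosphatase that activates CDK1, also had a brightest probe set that moved little (-0.32 and -0.09). BUB1, a checkpoint kinase, and PLK4, which drives centriole duplication, completed the 6, with medians of -1.12 and -1.08. With the brightest probe set of each gene, 2 members of the list were 2-fold lower. None of the 6 stayed concordant without shared-sequence probe sets, where the median was -1.08 for BUB1 and -0.49 for PLK4. PLK4 also lost the call with levels under 6 set to 6 (-0.72), and BUB1 with no level filter (-0.67). Of 33 G1/S genes 2 were 2-fold lower by median, CDC25A, a phosphatase of the G1/S switch, by -1.27, and CCNE2, a cyclin of S phase entry, by -1.14. MCM4, a subunit of the replicative helicase, was concordant with a median of -0.81. CDC25A differed by -0.75 without shared-sequence probe sets and by -0.24 at its brightest, and CCNE2 by -0.36 with levels under 6 set to 6.

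RNA-processing genes held some of the largest single readings. Of 46 measured hnRNP and splicing genes 4 were 2-fold lower by median, beside 2.58% of all genes. HNRNPL and SRSF3, a splicing factor with 6 probe sets from -0.26 to -1.70, were concordant. The SRSF3 call ended at a level limit of 7 and with levels under 6 set to 6, where its median was -0.41. SRSF6, another splicing factor, read 9.78 and 5.96 at 206108_s_at but 12.04 and 12.05 at 208804_s_at. HNRNPH1 read 10.81 and 7.27 at 213470_s_at and 13.07 and 12.81 at 201031_s_at. SNRNP40, a component of the U5 particle, read 11.64 and 9.10 at its only member probe set. The list median was -0.07, so these readings stood beside a list median near 0.

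In metabolic and stress lists few genes passed 2-fold. Of 40 nuclear genes of the respiratory chain 36 were above 0, with a median of 0.20 and a range of -0.29 to 0.63. The median over all genes was 0.08. Of 19 glycolysis genes 15 were above 0, with a median of 0.15. HMOX1, the haem-degrading oxygenase, was the exception in its list: it read 12.21 and 9.30 at its only member probe set, against 13.25 and 13.11 in the ALDH-negative pair. The median over the 18 NRF2 and haem genes was -0.26. The integrated stress response, heat shock, cholesterol, mTOR pathway and chromatin lists had medians of -0.01, -0.04, 0.21, 0.17 and 0.06. In the chromatin list MTA2, a subunit of the NuRD deacetylase complex, read 6.86 and 4.17 at its only member probe set and differed by -0.86 with levels under 6 set to 6. SQLE, an enzyme of cholesterol synthesis, was lower at all 4 of its probe sets (-0.38 to -1.64) and was called concordant with a median of -0.82, but not without shared-sequence probe sets.

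Of the ALDH family itself, 14 genes were measured and 11 were above 0, as were 11 in the ALDH-negative pair. ALDH1A1, the isoform most often tied to the activity used for sorting, read 11.77 on the control array and 10.66 on the DOX array, and 10.72 and 10.86 on the ALDH-negative arrays. ALDH7A1, a lysine-degrading member, was concordant with a median of 1.05, which became 0.95 with levels under 6 set to 6, and the call ended there and without shared-sequence probe sets. ALDH8A1, a member of the tryptophan pathway, read 6.11 and 7.64. Among 24 measured genes of BMP and TGF-beta signalling, SMAD5, a mediator of BMP signals, was concordant and lower at all 5 probe sets, from -1.77 to -0.19, but not concordant without shared-sequence probe sets. TGFB1, the ligand, read 6.88 and 8.25 and ACVR1, a type I receptor, 10.74 and 9.59, each at 1 probe set. TGFB1 differed by 0.60 with no level filter. Of 26 interferon-stimulated genes, SAMD9L, a restriction factor, was concordant and higher, while HERC5, IFI6 and CXCL10 were 2-fold lower at 1 probe set each (-1.72, -1.26 and -1.05). CXCL10 was at -0.97 with levels under 6 set to 6, and differed by -1.03 in the ALDH-negative pair.

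Some of the largest differences of all were seen by 1 probe set and not by the gene's others. MEX3D, an RNA-binding ubiquitin ligase, read 10.77 and 5.97 at 91816_f_at (-4.80) but 6.08 and 5.59 at 244712_at. CTNNB1, which encodes beta-catenin, read 8.37 and 3.82 at 1554411_at (-4.55), 12.08 and 11.78 at 201533_at and 7.75 and 8.87 at 223679_at, which was past 2-fold in the other direction. ATXN7, a subunit of the SAGA complex, read 9.28 and 5.10 at 243259_at and 8.36 and 8.39 at 209964_s_at. SGPP1, a phosphatase of sphingosine 1-phosphate, read 9.70 and 6.02 at 221268_s_at and 10.39 and 10.49 at 223391_at. The ALDH-negative arrays were within 0.33 of each other at each of the 4 low probe sets. C1orf56 (-3.57 at 230468_s_at) and STRN3, a striatin of phosphatase complexes (-3.42 at 215505_s_at), were of the same kind. The readings named were not matched in size by the gene's other probe sets. For MEX3D, however, 244712_at lay close to 6 or below it on all 4 arrays. For STRN3 the other probe set, 204496_at, was also lower (-0.72). Which probe set stands for the transcript was not tested.

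On the higher side the leading readings of genes that were not concordant were smaller. HPGD had 3 of 4 probe sets past 2-fold and ALPK2 both above 0, so these were not lone readings. COL6A1, a type VI collagen chain, read 8.30 and 10.80 at 213428_s_at, its brightest, and its other 3 differed by -0.11 to 0.74. HPGD, which degrades prostaglandins, read 5.44 and 7.91 at 211548_s_at and 5.80 and 7.98 at 203914_x_at, with 203913_s_at also past 2-fold (1.08), while 211549_s_at was at 6.74 and 6.70. The ALDH-negative arrays read 9.22 and 10.13 for HPGD at 211548_s_at. ALPK2, an alpha kinase, read 7.16 and 9.43, and 6.67 and 7.43, and was 2-fold higher at both probe sets of the ALDH-negative pair. TMEFF2, a transmembrane protein with follistatin domains, read 5.08 and 7.60 at 223557_s_at, but 13.54 and 13.50 at 224321_at. The other such probe sets belonged to TMEM161B-DT (2.59), KIAA1217 (2.31), PCDH18 and GALNT5 (2.24).

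Genes with a single member probe set have no other at the level limit to be set beside it. The highest were SCN1A, a sodium channel (3.70 and 6.24), UNC5C, a netrin receptor (6.50 and 8.96), NID2, H3C6, a histone H3 gene (5.99 and 8.36), and VIPR1, a receptor of vasoactive intestinal peptide (6.23 and 8.45). SCN1A differed by 0.24 with levels under 6 set to 6. With no level filter, which brings in dim probe sets of the same gene, the median was 0.40 for UNC5C, 1.20 for H3C6 and 1.36 for SCN1A. UNC5C and NID2 were also 2-fold higher in the ALDH-negative pair (1.38 and 2.92). The lowest were HMOX1, MTA2, CCL20, SNRNP40 and PWAR5, a noncoding RNA (7.36 and 5.06).

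The ALDH-negative pair gives each gene an independent set of readings. Of the 72 concordant higher genes 3 were also 2-fold higher there by median: TTC39B (2.21 in the ALDH-positive and 1.90 in the ALDH-negative pair), SAMD9L (1.19 and 1.69) and ANTXR2, an anthrax toxin receptor that binds matrix (1.02 and 1.10). Of the 125 concordant lower genes none was 2-fold lower there. The median ALDH-negative difference was 0.09 for the higher genes, of which 50 had the same sign in both pairs, and -0.08 for the lower genes, of which 90 did. Over all 12166 genes 46.4% were above 0 in the ALDH-negative pair, and the pairs had a Pearson r of 0.16 and a Spearman rho of 0.14 across genes. The gap between the pairs was 1 or more for 39 of the higher and 78 of the lower genes, which, with 1 array a group, is a value without a test. IL1B had the most opposed readings, -1.68 and 0.92.

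**Figure D5:**
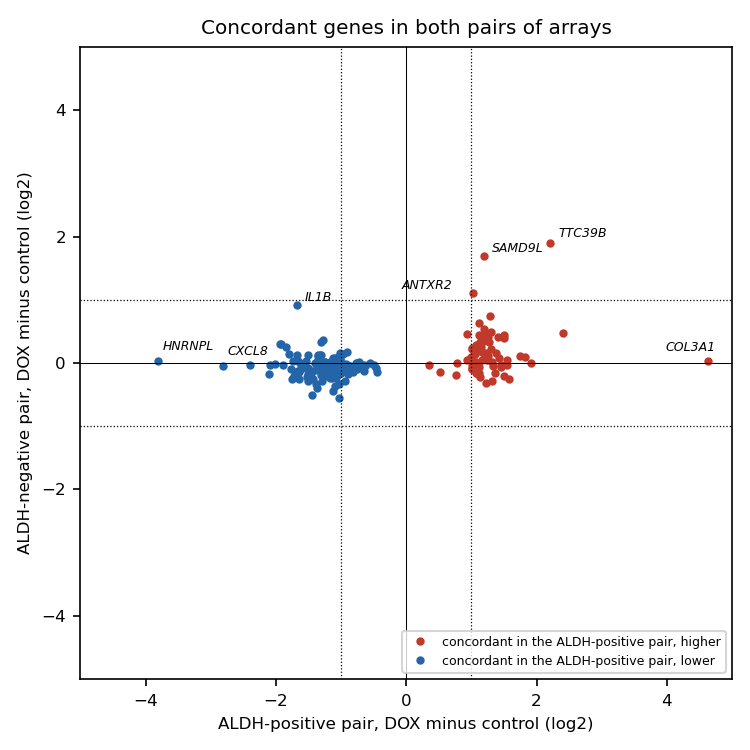
Gene medians (log2, DOX minus control) of the concordant genes in the ALDH-positive pair (horizontal) and over the same probe sets in the ALDH-negative pair (vertical), with 2-fold dotted lines. The 72 higher genes are red and the 125 lower ones blue; only TTC39B, SAMD9L and ANTXR2 pass 2-fold in both pairs, and most points lie near 0 on the vertical axis.

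Genes concordant in the ALDH-negative pair were for the most part not so here. COL1A2 (3.83) and ATP6V0D2 (3.29), with POSTN next, led that pair, and none of their 2 probe sets each was a member in the ALDH-positive pair. MEF2C, a transcription factor, was higher by 1.25 there and by 0.61 here, and NPAS3 by 1.76 and 0.41. TF, the iron carrier transferrin, was lower by -1.66 there and differed by 0.30 here.

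Seen over all 4 arrays, the ALDH-positive DOX array was the highest for 60 of the 72 higher genes, by 1 or more for 33 of them. It was the lowest for 117 of the 125 lower genes, by 1 or more for 67. The ALDH-positive control array was the lowest of the 4 for 35 of the higher genes, by 1 or more for 12, and the highest for 68 of the lower genes, by 1 or more for 10. HNRNPL and CXCL8 belong to the genes for which the DOX array stood apart by 1 or more, and CDH6 to those for which the control array did. These counts describe the arrays that chose the genes and carry no test.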

How the data were processed

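Total RNA of 4 samples, 1 per group, was labelled with biotin and hybridised to Affymetrix arrays. The deposited log2 values were made by the authors with RMA, per the submitters' processing notes. RMA subtracts background, makes the arrays' distributions equal and sums up the probes of a set; its release is not given in the sources used. Values were taken as deposited, 62 control probe sets were set aside, and the number of arrays limits the precision. A platform annotation dated 2016 gave 41097 probe sets 1 gene, 1801 several and 11777 none; symbols of 41043 were updated by gene identifier.

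Members had a level of 6 or more on either ALDH-positive array. Differences were called at 2-fold, with no test, since each group held 1 array. For figures and the strict set, a gene's brightest probe set had the highest mean level on the ALDH-positive arrays. The members and the 21 gene lists were chosen with earlier results of these data known. Genes named are the 12 highest and 12 lowest concordant genes by median, up to 4 members of each list by absolute median (concordant first, then those past 2-fold), all measured targets with MIR100HG, the 8 highest and 8 lowest probe sets of genes that were not concordant and the 5 highest and 5 lowest genes with 1 member probe set. Pseudogenes and unnamed loci were passed over, and some items are not reported here. List members given for contrast, array controls, cell type markers and MIR99AHG lie outside that rule.

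Alternatives were centring on array medians, levels of 7, no level filter, levels under 6 set to 6, leaving out shared-sequence probe sets (_x_at, _s_at), calls at 1.5-fold and the brightest probe set. Steps were tested on simulated data. Calculations used Python 3.11.15, numpy 2.4.6 and pandas 2.3.3, and figures matplotlib 3.10.9. Sequences came from RefSeq tables on GRCh38.p14; 55 of 72 higher and 99 of 125 lower concordant genes matched a promoter.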

Additional observations from a re-analysis of the deposited data

How the results depend on the processing

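Every call is a size on 1 array a group, no replicate could be left out, and values near a level of 6 lie close to background. No paired analysis was possible because each group has 1 sample and no test was run. The counts of concordant genes stayed within 1.5 times under centring (65 higher, 130 lower), a level of 7 (58 and 115), levels under 6 set to 6 (54 and 110) and no level filter (68 and 116). Without shared-sequence probe sets, 1020 probe sets were 2-fold lower and 29 higher and 47 lower genes were concordant, 27 and 46 of them among those reported. At 1.5-fold, 4318 probe sets were higher and 3960 lower, 352 and 351 genes were concordant, and 10 and 2 of these also passed in the ALDH-negative pair. Requiring the brightest probe set to pass, a choice made after seeing the data, left 56 higher and 48 lower genes. Among genes past 2-fold by median, the sign turned for TMEFF2 (-0.034) and SGPP1 (0.094) without shared-sequence probe sets and, with the brightest probe set of each gene, for TMEFF2 (-0.034), SGPP1 (0.094) and SRSF6 (0.013). Of the genes named that lay inside 2-fold, it turned for TMEM161B-DT (0.61 to -0.25) without shared-sequence probe sets and for BMPR2 (0.12), ATM (0.55), ZBTB7A (-0.16) and GALNT5 (-0.19) with the brightest.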
